A study of Homo sapiens with 6 samples.

Results

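Luminal regulators, mucins and surface glycoproteins of the breast epithelium, 10 genes in all, were followed on arrays of MCF-10A cells overexpressing MBD2. They are the hormone receptor genes ESR1 and PGR, the transcription factor genes GATA3, FOXA1 and ELF5, the mucin genes MUC1, MUC4 and MUC16, and the surface glycoprotein genes CD24 and PROM1. All probe sets that the array annotation assigns to exactly 1 of these symbols were kept, which gave 35 probe sets of 10 genes among 41091 probe sets of 19775 genes with a single symbol. MCF-10A cells are immortalized but not transformed, come from breast epithelium and were grown here in mammary epithelial medium. The MBD2 group held 3 arrays of MCF-10A cells infected with a lentivirus carrying MBD2, which had been packaged in HEK293 cells, and the control group held 3 arrays of MCF-10A cells without it. The submitters' labels call the controls uninfected and the arrays technical replicates, whereas the methods of the study describe an empty virus and biological replicates. An effect of infection itself and of MBD2 therefore cannot be told apart here, and the p-values cover no more than the spread between these 6 arrays, which may partly be technical. No source says whether the MBD2 cells are 1 clone.

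The luminal cells of the mammary gland line its ducts and alveoli, and a subset of them senses oestrogen and progesterone. FOXA1 and GATA3 open chromatin and act with the oestrogen receptor in these hormone-sensing cells, whereas ELF5 directs the alveolar branch that makes milk. Membrane mucins such as MUC1 coat the apical surface of these cells, and CD24, a small glycosylated surface protein, is commonly used to separate luminal from basal or stem-like cells. MBD2 binds methylated CpG dinucleotides and recruits the NuRD chromatin-remodelling complex, which is known for silencing methylated promoters, so the CpG content of the promoters of these genes is of interest.

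The promoters of the 10 genes differ widely in CpG content. RefSeq (GRCh38.p14) lists 29 transcript starts for them, and CpG was counted in the window of 300 bases around each start, 250 before it and 50 after it. Over all 35116 listed starts the median was 14 CpG per window, with quartiles of 4 and 28. Sequences upstream of MUC1 and CD24 are shown because these are the genes whose probe sets changed, and that of ELF5 because it held the fewest CpG of the 10 genes. Each runs 5′ to 3′ on the strand of the gene and ends at the base before the most upstream listed start, with every CpG in capitals.
MUC1: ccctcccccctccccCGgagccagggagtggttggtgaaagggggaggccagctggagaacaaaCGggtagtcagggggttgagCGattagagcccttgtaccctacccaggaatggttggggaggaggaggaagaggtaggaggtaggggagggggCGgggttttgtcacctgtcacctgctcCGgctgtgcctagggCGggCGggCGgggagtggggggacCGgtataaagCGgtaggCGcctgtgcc
CD24: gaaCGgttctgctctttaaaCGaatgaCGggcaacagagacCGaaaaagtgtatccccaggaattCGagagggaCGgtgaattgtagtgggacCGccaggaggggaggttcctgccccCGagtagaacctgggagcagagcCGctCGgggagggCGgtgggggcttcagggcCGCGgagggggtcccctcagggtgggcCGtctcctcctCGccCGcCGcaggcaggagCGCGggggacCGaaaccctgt
ELF5: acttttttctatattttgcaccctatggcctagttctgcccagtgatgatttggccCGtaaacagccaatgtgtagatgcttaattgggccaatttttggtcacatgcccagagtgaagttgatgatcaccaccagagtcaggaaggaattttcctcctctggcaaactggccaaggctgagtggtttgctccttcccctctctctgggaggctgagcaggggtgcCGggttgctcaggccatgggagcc
The MUC1 sequence lies at chr1:155192916-155193165 on the minus strand and holds 11 CpG. The window of its start has 13, and 51.7% of all listed starts have at least as many. The CD24 sequence, at chr6:106975628-106975877 on the minus strand, holds 20 CpG. It belongs to 1 of 3 listed starts of CD24, whose windows hold 21 to 36 CpG, and the annotated gene reaches further upstream. The ELF5 sequence, at chr11:34511725-34511974 on the minus strand, holds 2 CpG, and 89.0% of starts have at least as many in their window. It belongs to the single listed start of ELF5, and here too the annotated gene reaches further upstream. FOXA1 has 34 CpG at its single start, GATA3 has 5 to 36 over 6 starts and PROM1 has 6 to 32 over 4 starts. The hormone receptor genes lie lower, with 4 to 17 CpG at the 6 starts of ESR1 and 7 to 17 at the 3 starts of PGR, and the mucin genes MUC4 and MUC16 have 12 and 7 to 8. The E-box variant CACCTG, a sequence that SNAIL and ZEB repressors can bind, was searched on both strands, so that CAGGTG also counts. In the windows of 300 bases it occurs 2 times at both starts of MUC1 and at 2 of the 4 starts of PROM1, and 1 time at another PROM1 start, 1 of the 3 CD24 starts, both MUC16 starts and the starts of FOXA1 and ELF5. The MUC1 starts, at 155192909 and 155192915, have nearly the same window, so the same 2 sites are counted at both. Of all listed starts 20.6% have at least 1 in their window and 3.49% have 2 or more. These are descriptions of the reference sequence, since neither methylation nor binding was measured on these arrays.

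Some features of the arrays bear on all results. The probe set 202484_s_at of MBD2 read 12.17, 11.72 and 12.50 log2 units on MBD2 arrays 1, 2 and 3, against 8.92, 9.03 and 9.68 on control arrays 1, 2 and 3 (log2 fold change 2.92, standard error (SE) 0.28, adjusted p = 0.0157 from limma), and the other 3 probe sets of MBD2 differed by -0.08 to 0.11. MBD2 array 1 and control array 3 stood apart from the other arrays of their groups. MBD2 array 1 differed more than 2-fold from MBD2 arrays 2 and 3 at 5552 and 5126 probe sets, and control array 3 from control arrays 1 and 2 at 3037 and 3103, whereas MBD2 arrays 2 and 3 differed that much at 148 probe sets and control arrays 1 and 2 at 26. Mitosis genes moved with this split, since the median of their 39 probe sets differed from the control mean by -0.32, 1.67 and 1.39 on MBD2 arrays 1, 2 and 3, and by 0.48, 0.35 and -0.83 on control arrays 1, 2 and 3. The hybridization controls, which are non-human transcripts added at a fixed amount, averaged 9.94 and 10.01 on MBD2 arrays 2 and 3 and 10.96 to 11.33 on the other 4 arrays. As signs of RNA quality, the 3′ minus 5′ difference of the ACTB control probe sets was 3.93, 3.45 and 3.44 log2 units on MBD2 arrays 1, 2 and 3, against 3.95, 4.57 and 3.62 on control arrays 1, 2 and 3. That of GAPDH was 1.84, 1.49 and 1.52 on the MBD2 arrays, against 2.03, 2.52 and 1.83 on the control arrays. MBD2 arrays 2 and 3 were the lowest in both, and the part of RNA quality and hybridization in the results was not tested. The 9 measured epithelial markers of the line averaged 10.97 to 11.22 log2 units on MBD2 arrays and 11.22 to 11.66 on control arrays. Of their 12 probe sets 1 was called lower (EPCAM) and 1 higher (KRT8), where 0.978% and 0.898% of all probe sets were. At an unadjusted p under 0.05 from limma 6 of the 12 were lower and 2 higher, where 8.05% and 8.49% of all probe sets were. The median log2 fold change of the 12 was -0.40. Endothelial markers averaged 4.25 to 4.30 on MBD2 arrays and 4.24 to 4.32 on control arrays, and HEK293 markers 4.32 to 4.37 in both groups. Fibroblast markers averaged 5.42 to 6.81 on MBD2 arrays and 5.35 to 5.70 on control arrays, led by FAP, and leukocyte markers 4.13 to 4.20 on MBD2 arrays and 4.34 to 4.64 on control arrays, led by CD14. PTPRC, the defining gene of leukocytes, named after its values were seen, did not exceed 3.87 on MBD2 arrays and 4.03 on control arrays. No gene of these 4 lists of other cell types was called, and their part in the results was not tested.

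MUC1 and, at 1 of its 6 probe sets, CD24 were lower in the MBD2 cells, and none of the 10 genes was higher. A probe set was called at an adjusted p under 0.05, from limma with Benjamini-Hochberg adjustment over all 41091 probe sets, together with a fold change of at least 1.5. Of the 35 probe sets 4 were called lower, all 3 of MUC1 and 1 of CD24, against a background of 0.978% of all probe sets called lower (402). None of the 35 was called higher, where 0.898% of all probe sets were (369). At an unadjusted p under 0.05 there were 7 lower, against 8.05% of all probe sets, and 0 higher, against 8.49%. All 3 MBD2 arrays lay below all 3 control arrays for 10 of the 35 probe sets, against 12.3% of all probe sets, and above them for 0, against 10.4%. Those 10 were the 3 of MUC1, 5 of CD24, 1 of MUC4 and that of MUC16. The log2 fold change was negative for 27 of the 35 probe sets with a median of -0.15, beside 50.7% negative and a median of -0.0047 over all probe sets tested. Mean RNA per array cannot tell fewer expressing cells from less RNA per cell, for these or any other genes.

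**Figure D1:**
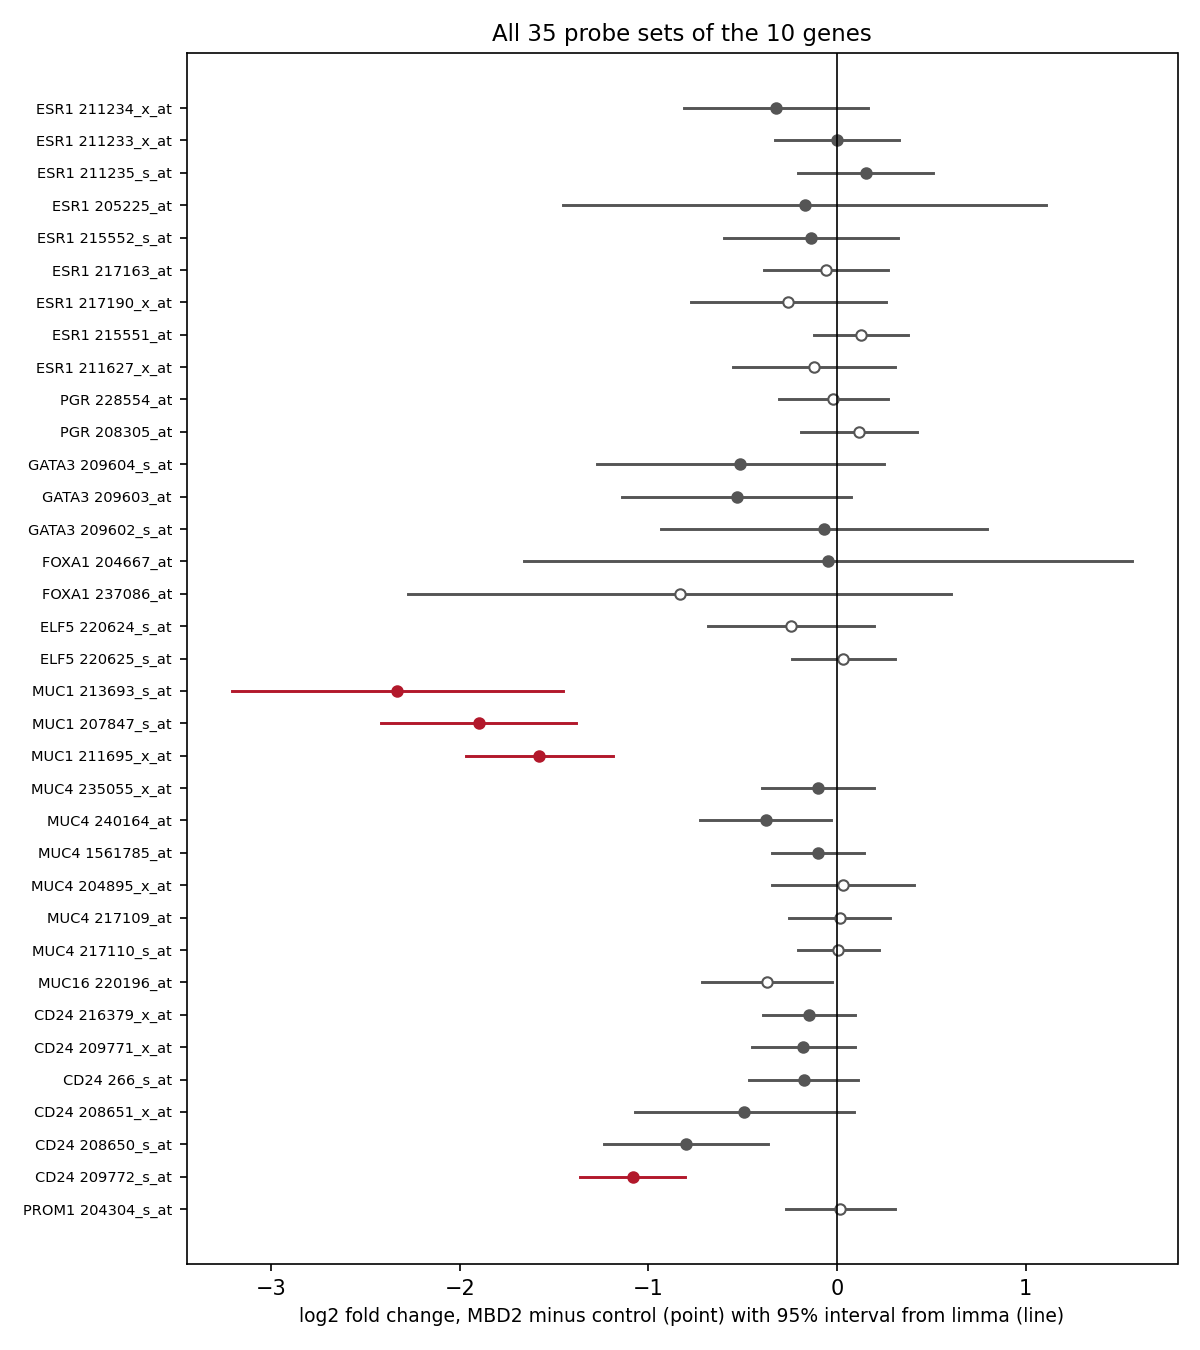
Log2 fold change (MBD2 minus control, point) with its 95% interval from limma (line) for the 35 probe sets of the 10 genes, with called probe sets in red and open points where at least 1 array was within 0.5 log2 units of background. The 3 MUC1 probe sets lie between -2.33 and -1.58 and the called CD24 probe set at -1.08, while the FOXA1 and ESR1 probe sets with wide intervals span 0.

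MUC1 had the largest decrease of the 10 genes, at each of its probe sets. The gene encodes a membrane mucin with a heavily glycosylated outer part and a signalling tail, and lies at chromosome 1, 155185824 to 155192915 (GRCh38.p14). Probe set 213693_s_at read 9.70, 8.68 and 8.50 log2 units on MBD2 arrays 1, 2 and 3, against 11.42, 11.55 and 10.90 on control arrays 1, 2 and 3. The lowest control array lay above the highest MBD2 array, and MBD2 array 1 was nearest to the controls. The means were 8.96 ± 0.65 in MBD2 cells and 11.29 ± 0.35 in control cells (SD, n = 3 each), a 5.03-fold decrease (log2 fold change -2.33, SE 0.36, adjusted p = 0.0438 from limma). Probe set 207847_s_at read 8.22, 7.68 and 7.50 on the MBD2 arrays, against 9.86, 9.70 and 9.53 on the control arrays. Again the groups were separate and MBD2 array 1 was the highest of the MBD2 arrays, with a 3.73-fold decrease (log2 fold change -1.90, SE 0.21, adjusted p = 0.0208 from limma). Probe set 211695_x_at read 5.84, 5.61 and 5.47 on the MBD2 arrays, against 7.46, 7.12 and 7.07 on the control arrays. The order of the MBD2 arrays was the same at all 3 probe sets, and the decrease here was 2.98-fold (log2 fold change -1.58, SE 0.16, adjusted p = 0.0172 from limma). The ending _s_at of the first pair marks probes shared by several transcripts, which can be of 1 gene, and the ending _x_at marks probes that may cross-hybridize. No MUC1 probe set free of such an ending was measured. The calls of the 3 probe sets were lost in 9, 7 and 7 of 16 alternatives, in the order above. With the replicate block their adjusted p was 0.0940, 0.0617 and 0.0596 (limma). With near-identical arrays averaged it was 0.581, 0.466 and 0.417 (limma). With MBD2 arrays 2 and 3 left out, which leaves MBD2 array 1 alone against the controls, the 3 log2 fold changes were -1.59, -1.48 and -1.38 in the order above, and without MBD2 array 2 or 3 or control array 1 or 2 none of the 35 probe sets was called.

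CD24 gave different answers at its 6 probe sets. The protein is anchored to the membrane by a lipid and binds P-selectin and Siglec-10, and the gene lies at chromosome 6, 106969831 to 106976855 (GRCh38.p14). Probe set 209772_s_at read 8.97, 9.04 and 9.03 log2 units on MBD2 arrays 1, 2 and 3, against 10.09, 9.95 and 10.26 on control arrays 1, 2 and 3. The MBD2 arrays were close together and lay below every control array, a 2.12-fold decrease with means of 9.01 ± 0.04 in MBD2 cells and 10.10 ± 0.16 in control cells (SD, n = 3 each), and a log2 fold change of -1.08 (SE 0.11, adjusted p = 0.0190 from limma). This call was lost in 8 of 16 alternatives, with an adjusted p of 0.0593 under trend and robust eBayes, 0.102 with the replicate block and 0.431 with near-identical arrays averaged (limma, 0.000365 to 0.431 over all of them). Probe set 208650_s_at read 10.49, 10.83 and 11.07 on the MBD2 arrays, against 11.59, 11.44 and 11.75 on the control arrays. These groups were separate too, but the difference did not pass the test (log2 fold change -0.80, SE 0.18, adjusted p = 0.0994 from limma). Probe set 208651_x_at read 11.47, 10.98 and 11.40 on the MBD2 arrays, against 11.57, 11.53 and 12.22 on the control arrays, with control array 3 the highest (log2 fold change -0.49, adjusted p = 0.369 from limma).

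The other 3 CD24 probe sets had log2 fold changes of -0.18 to -0.15. Probe set 209771_x_at read 13.65, 13.40 and 13.68 on the MBD2 arrays, against 13.76, 13.74 and 13.76 on the control arrays. Probe set 216379_x_at read 13.81, 13.64 and 13.83 on the MBD2 arrays, against 13.96, 13.89 and 13.89 on the control arrays. In both, the groups were separate by a narrow gap and MBD2 array 2 was the lowest. Probe set 266_s_at read 12.80, 12.57 and 12.73 on the MBD2 arrays, against 12.79, 12.82 and 13.02 on the control arrays, and here the groups overlapped. Their adjusted p lay between 0.486 and 0.512 (limma), and the 95% intervals of their log2 fold changes together ran from -0.47 to 0.11. Every CD24 probe set has an ending for shared or cross-hybridizing probes, and the RefSeq gene table lists pseudogenes of CD24. Whether cross-hybridization or the compression of bright signals plays a part in the spread between the 6 probe sets was not tested. With 1 value per gene, the probe set of highest mean gave CD24 a log2 fold change of -0.15 (adjusted p = 0.493 from limma) and the mean of its 6 probe sets gave -0.48 (adjusted p = 0.0957 from limma), so that CD24 was then not called. MUC1 was called both ways, with -2.33 (adjusted p = 0.0367 from limma) and -1.94 (adjusted p = 0.0195 from limma).

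**Figure D2:**
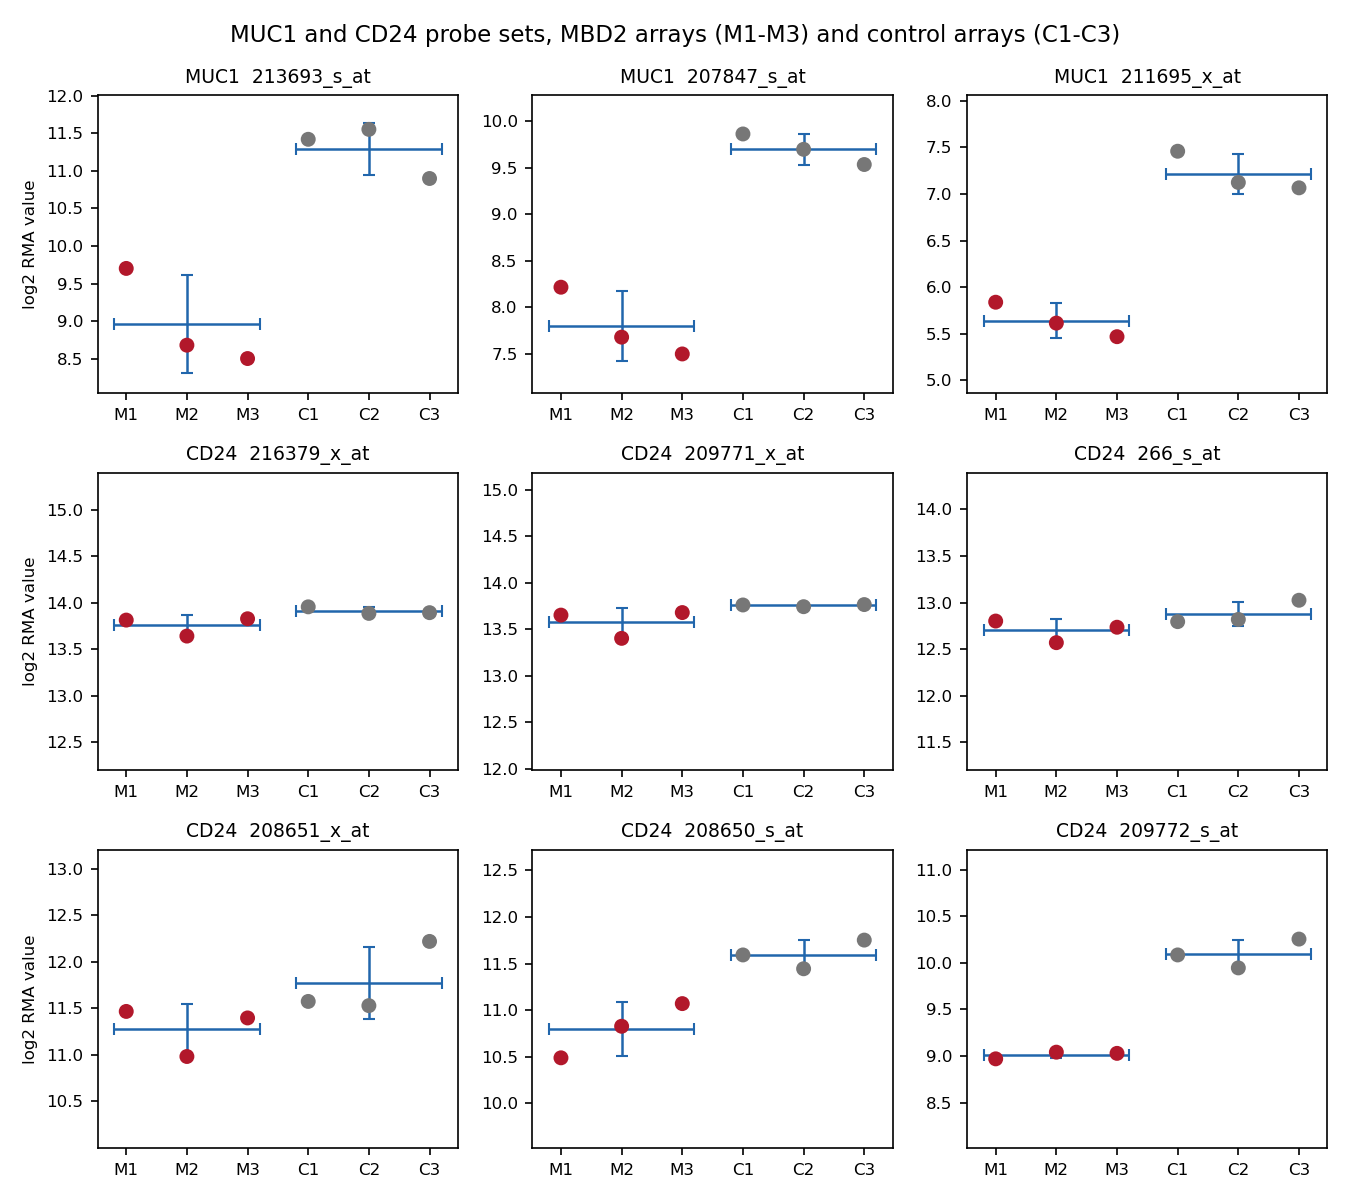
Log2 RMA value on MBD2 arrays (M1 to M3, red) and control arrays (C1 to C3, grey) for the 3 MUC1 and 6 CD24 probe sets, with the mean and SD of each group in blue and axes that do not start at 0. MBD2 arrays lie below control arrays in every panel except CD24 266_s_at, and M1 is the highest MBD2 array in all 3 MUC1 panels.

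MUC4 and MUC16 encode membrane mucins like MUC1, and no probe set of either was called. Of the 6 MUC4 probe sets, 240164_at read 4.63, 4.83 and 5.04 log2 units on MBD2 arrays 1, 2 and 3, against 5.07, 5.33 and 5.23 on control arrays 1, 2 and 3. The highest MBD2 array was just below the lowest control array, with a log2 fold change of -0.38 (SE 0.14, adjusted p = 0.268 from limma). The other 5 had log2 fold changes of -0.10 to 0.03 with overlapping groups, and 2 of the 6 were near background on all arrays. Near background means within 0.5 log2 units of 3.67, the highest value that control probe sets for a transcript not added to the samples reached on any array. The single MUC16 probe set, 220196_at, read 3.52, 3.62 and 3.59 on the MBD2 arrays, against 3.96, 3.71 and 4.18 on the control arrays. The groups were separate, the difference was -0.37 (SE 0.14, adjusted p = 0.271 from limma), and all arrays except control array 3 were near background. Low signal limits how large a decrease MUC16 could show.

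GATA3 was well above background at its 3 probe sets, and its groups overlapped at each. Probe set 209604_s_at read 9.46, 8.53 and 8.75 log2 units on MBD2 arrays 1, 2 and 3, against 9.04, 9.41 and 9.83 on control arrays 1, 2 and 3 (log2 fold change -0.51, SE 0.31, adjusted p = 0.471 from limma). Probe set 209603_at read 8.09, 7.60 and 7.69 on the MBD2 arrays, against 7.99, 8.20 and 8.80 on the control arrays (-0.53, SE 0.25, adjusted p = 0.355 from limma). At both, MBD2 array 1 lay among the controls while MBD2 arrays 2 and 3 lay below all of them, and control array 3 was the highest array. Probe set 209602_s_at read 6.98, 6.65 and 6.80 on the MBD2 arrays, against 6.30, 6.68 and 7.66 on the control arrays, a difference of -0.07 (adjusted p = 0.946 from limma). The 95% intervals of the 3 probe sets together ran from -1.27 to 0.79, so that these arrays leave a wide range for the change of GATA3. With MBD2 array 1 and control array 3 left out, the log2 fold changes were -0.58, -0.44 and 0.23 in the same order, and 209602_s_at turned positive.

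Both probe sets of FOXA1 and 205225_at of ESR1 varied widely among the control arrays, by more than the difference between the group means. The control arrays also differed by more than the group means at the other ESR1 probe sets, but over narrower ranges. FOXA1 encodes a forkhead factor that opens chromatin for the oestrogen receptor, and its probe set 204667_at read 4.49, 5.85 and 5.73 log2 units on MBD2 arrays 1, 2 and 3, against 4.65, 4.83 and 6.73 on control arrays 1, 2 and 3. MBD2 array 1 was the lowest and control array 3 the highest of the 6 arrays. The difference was -0.05 (SE 0.66, adjusted p = 0.982 from limma), with a 95% interval from -1.66 to 1.57. Probe set 237086_at read 4.41, 3.94 and 4.04 on the MBD2 arrays, against 3.99, 4.59 and 6.31 on the control arrays. MBD2 arrays 2 and 3 and control array 1 were near background there, which limits how large a decrease it could show. The difference was -0.83 (SE 0.59, adjusted p = 0.539 from limma), set largely by control array 3. Without control array 3 it was -0.16, and with that array and MBD2 array 1 both left out, 204667_at had a log2 fold change of 1.05. That fit holds only the near-identical pairs, so its spread is that between nearly identical arrays, and it called 4094 probe sets lower and 6380 higher over all. ESR1 encodes oestrogen receptor alpha. Its probe set 205225_at read 4.94, 5.72 and 5.78 on the MBD2 arrays, against 5.09, 5.09 and 6.79 on the control arrays, with MBD2 array 1 again the lowest and control array 3 the highest. The difference was -0.17 (SE 0.52, adjusted p = 0.906 from limma), and without those 2 arrays it was 0.67. The same 2 arrays stood apart by mitosis genes, and the part of proliferation in these values was not tested. The other 8 ESR1 probe sets had log2 fold changes of -0.32 to 0.15 with overlapping groups, and 2 of the 9 were near background on all arrays.

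**Figure D3:**
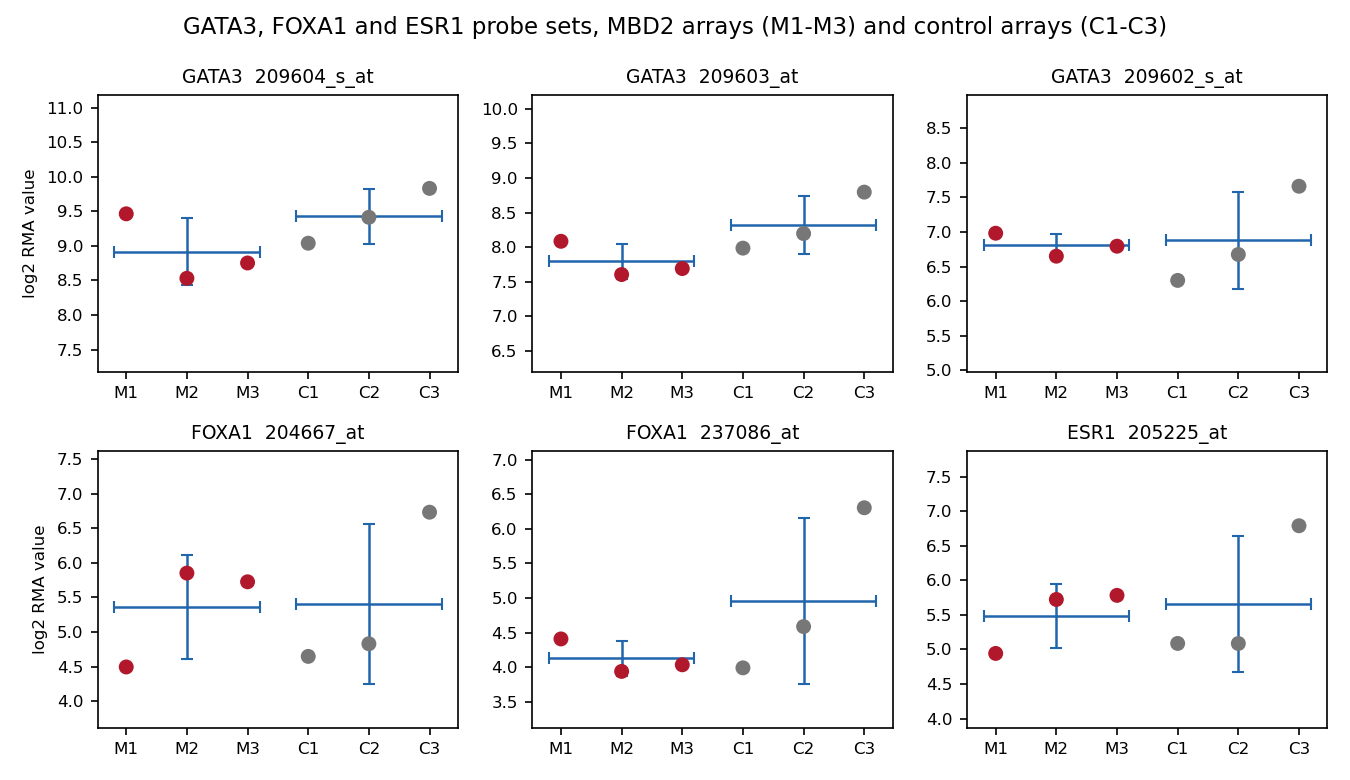
Log2 RMA value on MBD2 arrays (M1 to M3, red) and control arrays (C1 to C3, grey) for 3 GATA3, 2 FOXA1 and 1 ESR1 probe sets, with the mean and SD of each group in blue and axes that do not start at 0. The groups overlap in every panel, and C3 is the highest array in each, at 6.73 for FOXA1 204667_at and 6.79 for ESR1 205225_at.

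PGR, PROM1 and ELF5 were at or close to background, so that a decrease could hardly have been seen. PGR encodes the progesterone receptor, a target of the oestrogen receptor, and its 2 probe sets lay between 3.32 and 3.61 log2 units on MBD2 arrays and between 3.01 and 3.64 on control arrays, near background on all 6 arrays. PROM1 encodes prominin-1 (CD133), a protein of membrane protrusions that is used as a progenitor marker, and it read 3.44, 3.36 and 3.27 on MBD2 arrays 1, 2 and 3, against 3.30, 3.22 and 3.51 on control arrays 1, 2 and 3. ELF5, an ETS factor, read 3.84, 4.32 and 4.13 at 220624_s_at on the MBD2 arrays, against 4.49, 4.46 and 4.07 on the control arrays, with overlapping groups (log2 fold change -0.24, adjusted p = 0.559 from limma), and its other probe set was near background on all arrays. These 5 probe sets had log2 fold changes of -0.24 to 0.12. Over the 10 genes, 8 of the 35 probe sets were near background on all arrays and 21 on none.

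**Figure D4:**
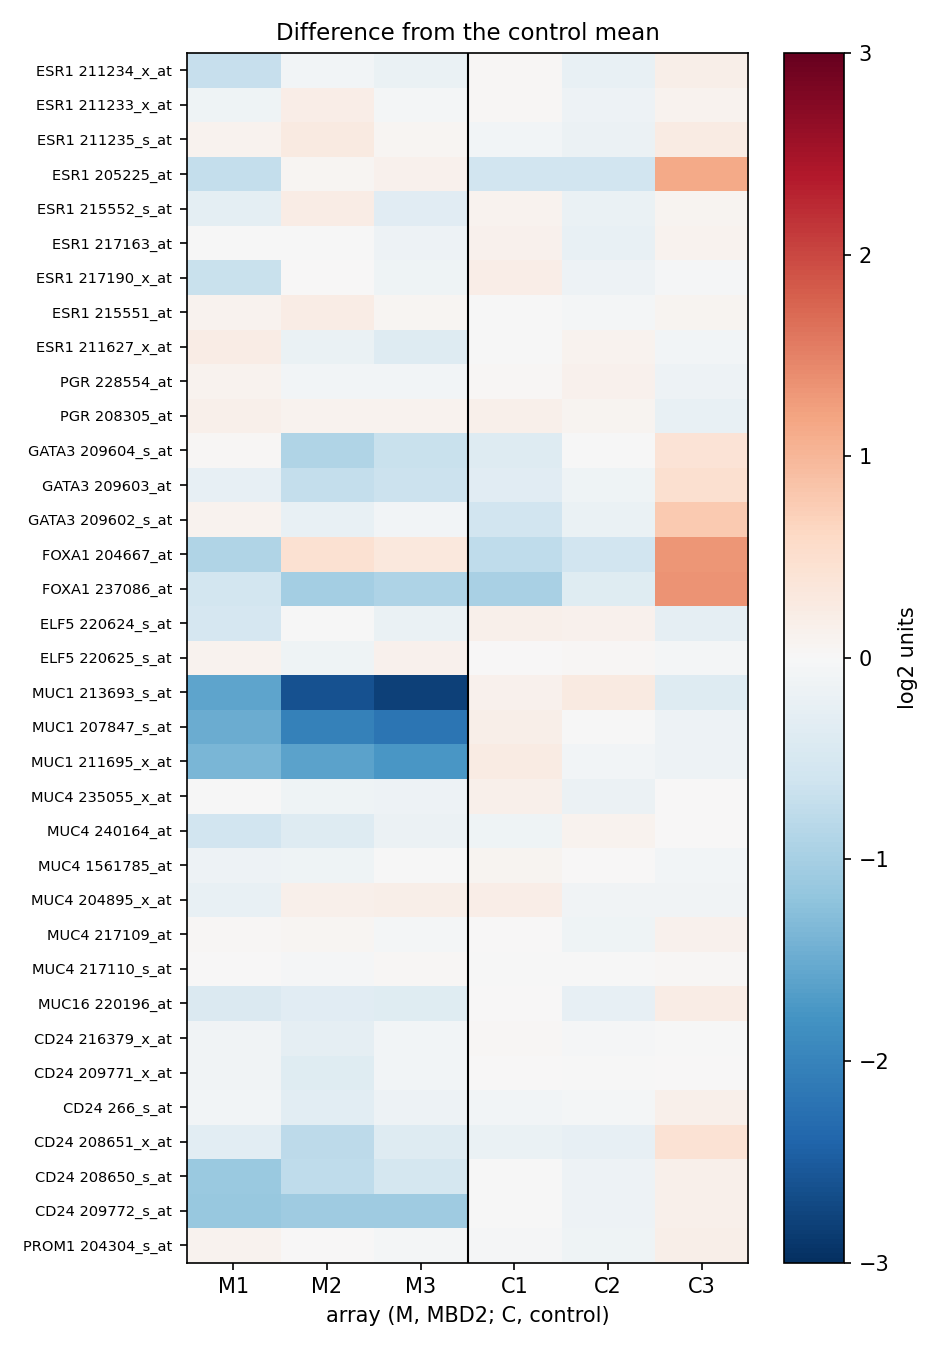
Difference of each array from the mean of the control arrays (log2 units, blue lower and red higher) for the 35 probe sets in rows, with MBD2 arrays M1 to M3 left of the line and control arrays C1 to C3 right of it. The MUC1 rows are blue on all 3 MBD2 arrays, at -2.79 on M3 for 213693_s_at, and the FOXA1 and ESR1 205225_at rows are red on C3, at 1.13 to 1.34.

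Seen by array, the median of the 35 probe sets differed from the control mean by -0.16, -0.14 and -0.14 on MBD2 arrays 1, 2 and 3, and by 0.01, -0.13 and 0.09 on control arrays 1, 2 and 3. Control array 2 thus lay nearly as low as MBD2 arrays 2 and 3 by this median. The decrease of MUC1 was smaller on MBD2 array 1 (-1.59, -1.48 and -1.38 at the 3 probe sets in the order above) than on MBD2 array 3 (-2.79, -2.20 and -1.75). That of CD24 at 209772_s_at was -1.13, -1.05 and -1.07 on MBD2 arrays 1, 2 and 3, nearly the same on all of them.

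Few other luminal genes passed the test. Of 20 structural and secretory luminal genes (30 probe sets), 1 was lower and 1 higher, each at 1 probe set, where 0.978% and 0.898% of all probe sets were called. At an unadjusted p under 0.05 from limma, 2 of the 30 probe sets were lower and 5 higher, where 8.05% and 8.49% of all probe sets were. SLPI, a secreted protease inhibitor, read 9.87, 9.07 and 8.85 log2 units on MBD2 arrays 1, 2 and 3, against 12.89, 12.63 and 12.86 on control arrays 1, 2 and 3 (log2 fold change -3.53, adjusted p = 0.0116 from limma). KRT8, a keratin of simple epithelium, read 9.09, 9.29 and 9.99 on MBD2 arrays, against 7.85, 7.53 and 6.94 on control arrays (2.02, adjusted p = 0.0478 from limma). The luminal keratin genes KRT18 and KRT7, named after their values were seen, also had all MBD2 arrays above all control arrays at 1 probe set each, with log2 fold changes of 1.66 and 1.41 that did not pass the test (adjusted p = 0.221 and 0.105 from limma). The other probe sets of KRT7 had log2 fold changes of -0.19 to 0.31 with overlapping groups. Those of KRT19, a further keratin of this list, had -0.08 and -0.16, also with overlapping groups. WFDC2, ALDH1A3 and KIT of the same list, also named after their values were seen, had separate groups at 1 probe set each. WFDC2 went the other way, with a log2 fold change of -1.87 that did not pass the test (adjusted p = 0.121 from limma). ALDH1A3 was 2.65-fold and KIT 1.58-fold higher, and neither passed the test (adjusted p = 0.109 and 0.138 from limma). The other probe sets of WFDC2 and ALDH1A3 had overlapping groups. Of 17 measured genes for luminal transcription factors and related regulators (61 probe sets) 1 was lower and 0 higher, with 10 probe sets lower and 1 higher at an unadjusted p under 0.05 from limma. It was EHF, an epithelial ETS factor like ELF5, called at 3 of its probe sets with log2 fold changes of -2.66, -2.57 and -2.07 (adjusted p = 0.0139, 0.0148 and 0.0302 from limma). Of 16 oestrogen response genes (41 probe sets) none was called, with 3 probe sets lower and 3 higher at an unadjusted p under 0.05 from limma. Of 17 other mucins and sialomucins none was called (5 of 36 probe sets lower and 1 higher at an unadjusted p under 0.05 from limma). Nor was any of 17 enzymes that build the O-linked sugars of mucins (6 of 40 probe sets lower and 2 higher by the same test). The median log2 fold changes of these 5 lists lay between -0.08 and -0.04, beside -0.0047 over all probe sets tested.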

How the data were processed

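RNA of MCF-10A cells was hybridized to Affymetrix Human Genome U133 Plus 2.0 arrays, 3 for MBD2 cells and 3 for control cells. The authors deposited RMA-normalized log2 values, 1 for each probe set on each array. RMA and the affy package are named in the processing notes of the submitters, with versions not given in the sources used here. RMA makes the distributions of the arrays alike, so a change of all genes together cannot be seen. Of 54675 probe sets, 41091 had exactly 1 gene symbol in the platform annotation, 1801 had several, 11721 had none and 62 were array controls, and RefSeq held the Entrez identifiers of 19735 of the 19775 genes. All 41091 were fitted without a filter on low values with lmFit and eBayes of limma 3.58.1 (R 4.3.3) and no term other than group, with Benjamini-Hochberg adjustment over all of them, and all 35 probe sets of the 10 genes entered. A fold change is the mean log2 value of the MBD2 arrays minus that of the control arrays, and levels were not compared between probe sets. The fit was tested on simulated data. The precision is limited by the number of arrays, which carry no counts.

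The members and the 13 gene lists were chosen with earlier results of these data known. Named genes are all members, MBD2, the called genes of each list (at most 4 in each direction) and the highest gene of lists of other cell types. Others are said to be chosen after their values were seen. The alternatives were 1 value per gene, other probe set selections, centring, normalization, eBayes settings and fold thresholds, the fold rule of the methods, a replicate block and arrays left out. Promoter windows are those of RefSeq (GRCh38.p14), in which all 10 genes were found.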

Additional observations from a re-analysis of the deposited data

How the results depend on the processing

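The count of 4 probe sets lower, with MUC1 and CD24 among the genes, was the same under a fold threshold of 2, the methods' fold rule in each sample, a minimum mean of 5, quantile normalization and centring on housekeeping genes. It was 3 with all probe sets except controls, where MUC1 213693_s_at had an adjusted p of 0.0530 from limma. With trend and robust eBayes 3 were lower, of 1 gene (MUC1), and 1 gene was lower with 1 value per gene, by the brightest probe set or the mean of all. Only probe sets with no ending for shared sequence gave 0 probe sets and 0 genes, since none of MUC1 or CD24 is among them. The deviations of the arrays from their group means correlated at 0.21, -0.33 and 0.29 for equal numbers 1, 2 and 3. The correlation was 0.355 for MBD2 array 1 with control array 2. Since MBD2 array 1 and control array 3 stood apart in their groups, these values cannot tell whether equal numbers were handled together. With the number as a replicate block 0 probe sets and 0 genes of the 10 were lower, 23 probe sets of all were called lower and 1 higher, and MBD2 itself had 2.92 with an adjusted p of 0.0511 from limma, within a range of 3.18e-05 to 0.401 over its alternatives. Averaging near-identical arrays gave 0 probe sets and 0 genes lower, 0 calls over all probe sets and an MBD2 log2 fold change of 2.81, and leaving out MBD2 arrays 2 and 3 gave 0 and 0 and 2.96. The last fit holds a single MBD2 array, assumed to vary like the controls, and called 0 of all probe sets, so its counts say nothing about these genes. Leaving out control array 3 and MBD2 array 1, which leaves only the near-identical pairs and their small spread, gave 4 probe sets of 2 genes lower and 2 probe sets of 2 genes higher, with ESR1 205225_at at 0.67, FOXA1 204667_at at 1.05 and GATA3 209602_s_at at 0.23. Without MBD2 arrays 2 and 3, GATA3 209604_s_at had 0.036 and 209602_s_at 0.10. With each array left out in turn, 0 to 5 probe sets of 0 to 2 genes were lower, 5 without MBD2 array 1, 3 without control array 3 and 0 without any of the other 4, and 0 were higher. The log2 fold change then ran from 2.73 to 3.16 for MBD2, from -0.46 to 0.40 for ESR1 205225_at, from -0.42 to 0.62 for FOXA1 204667_at and from -0.36 to 0.32 for GATA3 209602_s_at. The log2 fold changes of MUC1 and CD24 were negative under every alternative in which they could be fitted. They lay between -2.90 and -1.38 for MUC1 and between -1.16 and -0.98 for CD24 209772_s_at. Every MBD2 array lay below every control array at the MUC1 probe sets and at CD24 209772_s_at. Leaving out or averaging arrays therefore could not change the sign there, so that sign was fixed in advance. The number of probe sets called lower and higher over all 41091 was 402 and 369, and 4094 and 6380 without control array 3 and MBD2 array 1, 1924 and 3616 without MBD2 array 1, 508 and 388 without control array 3, and at most 67 and 32 without any 1 of the other 4 arrays. It was 408 and 268 when centred on housekeeping genes. Causes of these differences were not tested. Signal near background limits what PGR, PROM1, ELF5, MUC16 and FOXA1 237086_at can show.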

Other observations

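CD24 is commonly read together with CD44 and EPCAM to sort mammary cells. EPCAM was lower in the MBD2 cells, and so was CD44 at some of its probe sets. Of 13 measured surface markers of stem and progenitor cells 2 genes were called lower and 0 higher. By probe set 5 of their 40 were called lower and 0 higher, where 0.978% and 0.898% of all probe sets were called. At an unadjusted p under 0.05 from limma 11 of the 40 were lower and 5 higher (8.05% and 8.49% of all probe sets), and the median log2 fold change was -0.06. EPCAM, an epithelial adhesion molecule, read 9.82, 9.77 and 9.79 log2 units on MBD2 arrays 1, 2 and 3, against 12.96, 13.05 and 12.73 on control arrays 1, 2 and 3 (log2 fold change -3.12, adjusted p = 0.00148 from limma). CD44, the hyaluronan receptor, was called lower at 4 of its 13 probe sets. At 229221_at it read 8.87, 8.81 and 8.78 on MBD2 arrays, against 10.91, 11.08 and 10.51 on control arrays (log2 fold change -2.01, adjusted p = 0.0124 from limma), whereas 212063_at had a log2 fold change of 0.06.

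Of 15 measured basal mammary genes (40 probe sets) none was called, with a median log2 fold change of -0.07, and KRT17, KRT6A, KRT6B, TP63 and FOXC1 were not analysed here. At an unadjusted p under 0.05 from limma, 7 of the 40 probe sets were lower and 5 higher, where 8.05% and 8.49% of all probe sets were. Of 18 mitosis genes (39 probe sets) none was called (0 probe sets lower and 1 higher at an unadjusted p under 0.05 from limma), with a median log2 fold change of 0.85. MUC15, a membrane-bound mucin named after its values were seen, read 3.84, 3.62 and 3.91 at 227238_at on MBD2 arrays 1, 2 and 3, against 6.59, 7.16 and 9.52 on control arrays 1, 2 and 3. All MBD2 arrays were near background, control array 3 was the highest, and the difference did not pass the test (log2 fold change -3.97, adjusted p = 0.0667 from limma). ELF3, an ETS factor like ELF5 that was also named after its values were seen, had log2 fold changes of -2.31 to -1.83 at 3 probe sets with the groups separate at each, and did not pass the test (adjusted p = 0.327 to 0.335 from limma). Other uncalled genes of the lists, also named after their values were seen, went the other way. Log2 fold changes were 1.82 for PDZK1, 1.93 for TBX3 219682_s_at, 2.31 for STC2 203438_at and 2.44 for MYBL1 213906_at. The groups were separate at each (adjusted p = 0.0612, 0.116, 0.205 and 0.169 from limma). Other probe sets of TBX3, STC2 and MYBL1 had -0.26 to 1.61.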
